A study of Mus musculus with 8 samples.

Results

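The genes described here are 38 interferon-stimulated genes of the mouse tongue, chosen by name as rows of a table with 23235 genes. RNA was sequenced from 5 samples of tongue not exposed to the carcinogen 4-NQO (4-nitroquinoline 1-oxide), called normal here. The other 3 samples were squamous cell carcinomas of 4-NQO-treated tongue. All came from female C57BL/6 mice, and ages and 4-NQO doses were not given in the sources used here. This compound forms bulky DNA adducts and is used to produce oral carcinomas in rodents. Normal tongue holds much skeletal muscle beside its squamous epithelium, with glands and vessels, so the groups differ in tissue makeup as well as in transformation. All levels and comparisons come from the authors' deposited table, which holds a single FPKM (fragments per unit of transcript length, scaled to the number of mapped fragments) per gene and group. No value per sample can therefore be shown, the depth of each sample is unknown, and overlap of the groups cannot be judged. Whether the samples are from different mice is not stated, so the p-values speak at most for the spread among these 8 samples, which may be technical. How the authors' test estimated that spread is not given either. All 38 genes were tested by the authors.

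Interferons are secreted proteins that put cells into an antiviral and antigen-presenting state. Type I interferons act through the receptor chains IFNAR1 and IFNAR2 and lead to binding of transcription factors, STAT2 and IRF9 among them, at the interferon-stimulated response element (ISRE). Interferon-gamma, made by T cells and natural killer cells, acts through IFNGR1 and IFNGR2 and leads to binding at the gamma-activated sequence (GAS). It also induces IRF1, which binds ISRE-like sites, so the target sets overlap. In squamous epithelium and its tumours these genes are read as a record of interferon exposure in any of the cells present.

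Promoter sequence is shown for 8 members: the 4 that rose (Oas1a, Oas1g, Gbp2 and Igtp), the gamma-responsive regulator Irf1, and Isg15, Ifit1 and Ifit3 as type I genes that did not pass the test. Each line holds the 160 bases before the annotated start site, 5′ to 3′ on the strand of the gene, from RefSeq on GRCm38.p6. Capitals mark matches to the ISRE core, which is GAAA, any 2 bases and GAAA again, on either strand and to the GAS core TTCNNNGAA, which reads the same on both strands.
Oas1a: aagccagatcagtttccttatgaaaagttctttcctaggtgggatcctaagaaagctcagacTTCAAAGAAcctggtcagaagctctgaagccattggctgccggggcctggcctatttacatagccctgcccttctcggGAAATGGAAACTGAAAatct
Oas1g: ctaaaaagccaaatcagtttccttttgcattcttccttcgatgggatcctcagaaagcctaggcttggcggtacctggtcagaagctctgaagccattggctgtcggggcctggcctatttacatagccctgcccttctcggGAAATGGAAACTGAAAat
Gbp2: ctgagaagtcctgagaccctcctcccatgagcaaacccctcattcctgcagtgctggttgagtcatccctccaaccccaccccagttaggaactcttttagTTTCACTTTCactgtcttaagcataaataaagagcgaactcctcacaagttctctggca
Igtp: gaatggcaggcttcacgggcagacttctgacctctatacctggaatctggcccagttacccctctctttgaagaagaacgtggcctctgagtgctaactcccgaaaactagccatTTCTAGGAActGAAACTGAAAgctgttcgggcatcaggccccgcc
Irf1: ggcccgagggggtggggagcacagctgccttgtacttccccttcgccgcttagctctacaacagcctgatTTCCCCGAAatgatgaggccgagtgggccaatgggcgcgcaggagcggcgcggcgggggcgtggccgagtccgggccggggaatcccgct
Isg15: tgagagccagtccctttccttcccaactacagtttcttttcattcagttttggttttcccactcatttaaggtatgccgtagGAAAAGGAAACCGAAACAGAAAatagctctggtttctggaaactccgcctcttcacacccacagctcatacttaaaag
Ifit1: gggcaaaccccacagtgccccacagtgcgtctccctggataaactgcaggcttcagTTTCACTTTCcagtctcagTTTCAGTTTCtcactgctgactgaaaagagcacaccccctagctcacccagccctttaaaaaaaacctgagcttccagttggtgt
Ifit3: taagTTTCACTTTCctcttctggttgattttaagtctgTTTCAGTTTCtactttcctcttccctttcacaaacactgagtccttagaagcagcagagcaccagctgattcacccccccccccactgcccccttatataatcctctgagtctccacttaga
The windows lie at chr5:120907526-120907685 and chr5:120887614-120887773 on the minus strand, chr3:142620503-142620662, chr11:58199396-58199555 and chr11:53769854-53770013 on the plus strand, chr4:156200819-156200978 on the minus strand, and chr19:34640729-34640888 and chr19:34583369-34583528 on the plus strand. Overlapping ISRE matches began 20 and 14 bases before the start site of Oas1a, and 18 and 12 bases before that of Oas1g. Igtp held a GAS match 45 bases and an ISRE match 34 bases before its start site. Ifit1 and Ifit3 each held a separate pair of ISRE matches farther upstream.

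Most interferon-stimulated genes had higher values in the carcinomas, but 34 of 38 did not pass the test, and the 95% intervals of 28 of those included 0. Of the 38 members, 4 (10.5%) rose at a deposited q-value under 0.05, beside 3.07% of 15783 tested genes. None fell, beside 3.19% of the tested genes. In either direction, 6.26% of tested genes were called in the authors' deposited table. A q-value is a p-value adjusted for many tests, here by a method and over a set of genes not given in the sources used. The risers were Oas1a and Oas1g, antiviral oligoadenylate synthetases, and Gbp2 and Igtp, GTPases that act against intracellular pathogens. The fold change was positive in 33 of 38 members, beside 47.6% of the tested genes whose fold could be computed. The median log2 fold change was 0.79 (1.73-fold), beside −0.04 over all tested genes. At an unadjusted p under 0.05, 10 members were higher and none lower, beside 8.22% and 12.5% of all tested genes. In bulk tissue, fewer or more cells of a type and less or more RNA per cell cannot be told apart.

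**Figure D1:**
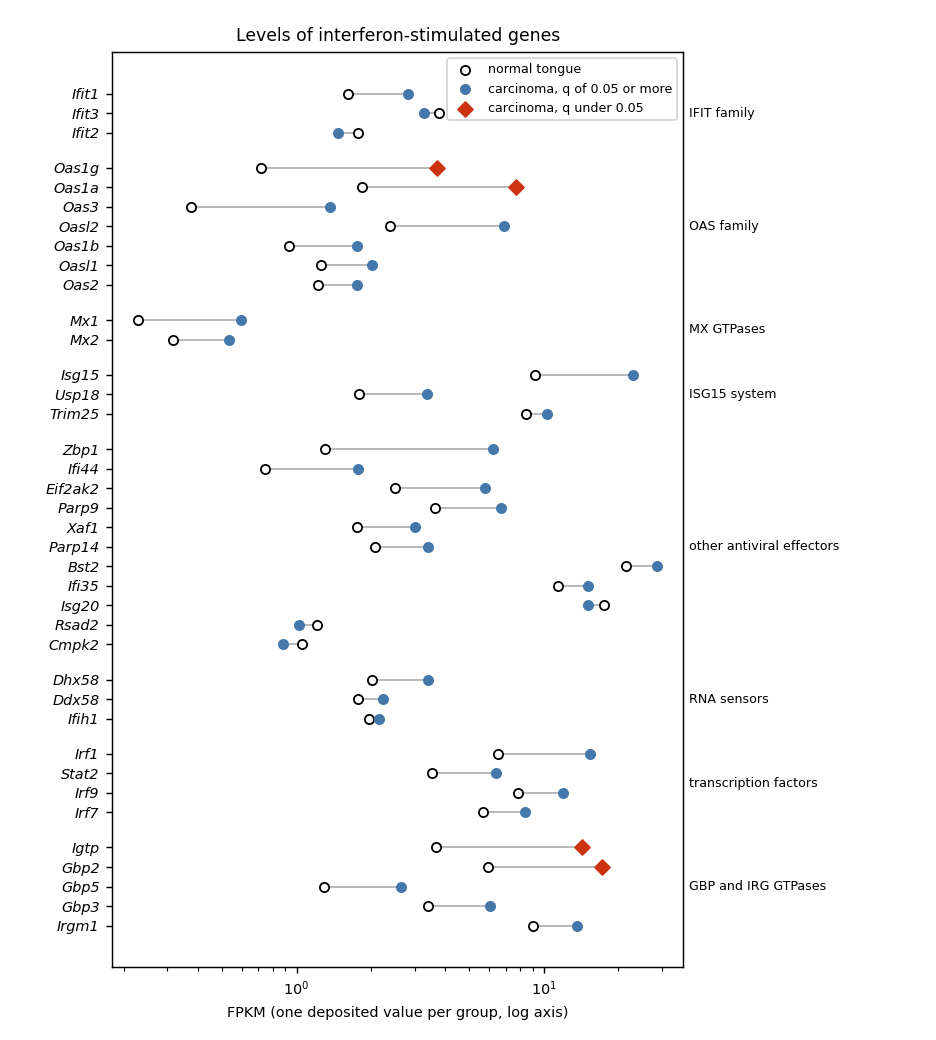
Deposited FPKM of the 38 members in normal tongue (open circles) and carcinoma (filled), on a log axis and grouped by role, with 1 value per group. Red diamonds mark Oas1a, Oas1g, Gbp2 and Igtp, which passed q under 0.05; in 5 members the carcinoma value lies left of the normal value.

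The GTPases of the GBP and IRG families coat and disrupt membranes around intracellular pathogens and respond strongly to interferon-gamma. Of the 5 members 2 were higher, beside 3.07% of all tested genes. Igtp, an immunity-related GTPase listed on chromosome 11, rose from 3.67 FPKM in normal tongue to 14.3 in carcinoma in the authors' deposited table. Its log2 fold change was 1.96 ± 0.50 (standard error implied by the authors' test, as for all ± values below), with q = 0.00546, the smallest among the members. Gbp2, a guanylate-binding protein, rose from 5.94 to 17.1 FPKM (1.53 ± 0.46, q = 0.0370). These are the 2 calls among the 5 GTPases, and they also had the highest carcinoma levels of the 5. Gbp5, which promotes inflammasome assembly, stood at 1.29 and 2.64 FPKM (1.03 ± 0.59, q = 0.751). Gbp3 stood at 3.42 and 6.07 FPKM (0.83 ± 0.49, q = 0.807). Irgm1, a regulatory GTPase of the IRG family, had the highest normal level of the 5, 9.06 FPKM, and 13.6 in carcinoma (0.59 ± 0.44, q = 1.00).

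The oligoadenylate synthetases make the second messenger that activates RNase L in response to double-stranded RNA. All 7 listed members had positive fold changes, and the median log2 fold change was 1.52. Of the 7, 2 rose, beside 3.07% of all tested genes. Oas1a rose from 1.83 to 7.74 FPKM in the authors' deposited table (2.08 ± 0.59, q = 0.0217), and Oas1g from 0.716 to 3.71 FPKM (2.37 ± 0.69, q = 0.0259). Their assignment is uncertain: of the 50-base words of the longest coding transcript of Oas1a, 57.6% also occur in Oas1g, and 54.1% of those of Oas1g occur in Oas1a, in the GENCODE M21 transcripts. The promoter windows printed above are 89.0% identical over 155 aligned bases. How the authors assigned reads between the pair is not given in the sources used here, so the gain may belong to either gene or to both.

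Oas3, the long synthetase, stood at 0.374 and 1.37 FPKM (1.87 ± 0.67, q = 0.148), and Oasl2, an OAS-like protein, at 2.39 and 6.87 FPKM (1.52 ± 0.52, q = 0.105) in the deposited table. Neither passed, but the 95% interval of each fold change lay above 0. Oas1b stood at 0.929 and 1.76 FPKM (0.92 ± 0.71), Oasl1, which restrains translation of Irf7, at 1.25 and 2.01 (0.68 ± 0.66) and Oas2 at 1.22 and 1.76 (0.53 ± 0.60), each with q = 1.00. In C57BL/6 mice Oas1b carries a premature stop codon and Mx1 an internal deletion, so their transcripts do not encode the full antiviral proteins.

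**Figure D2:**
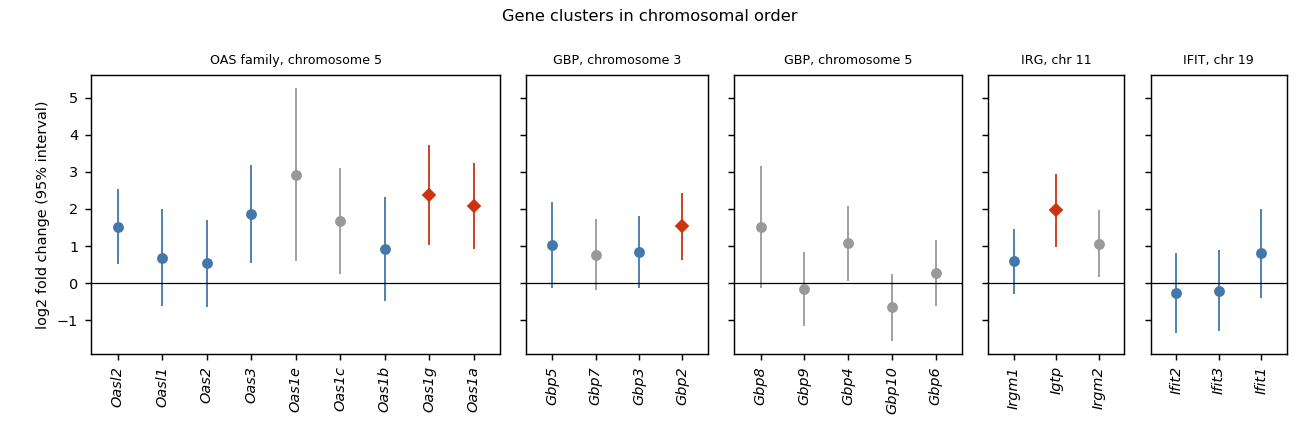
Log2 fold change of carcinoma over normal, with 95% intervals from the implied standard error, for tested OAS, GBP, IRG and IFIT genes in chromosomal order. Red diamonds are members that passed q under 0.05, blue circles other members and grey circles relatives from the pathway lists; Oas1g and Oas1a are neighbours, while the 3 IFIT genes lie on both sides of 0.

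Along chromosome 5 the called genes Oas1g and Oas1a lie next to each other among the listed tested genes, and along chromosome 3 Gbp2 lies beside Gbp3. The relatives outside the member list were chosen after their values were seen. Among them, Oas1c stood at 0.479 and 1.52 FPKM in the authors' deposited table (1.67 ± 0.73, q = 0.374). Irgm2, the gene listed beside Igtp, stood at 3.80 and 7.98 FPKM (1.07 ± 0.46, q = 0.352), and 12.3% of the 50-base words of Igtp also occur in it. The GBP genes of chromosome 5 were mixed: Gbp4 stood at 1.89 and 3.98 FPKM (1.07 ± 0.52), but Gbp10 at 5.81 and 3.70 (−0.65 ± 0.46) and Gbp9 at 2.75 and 2.46 (−0.16 ± 0.51). None of these relatives passed the test.

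The IFIT and MX genes, the other classical type I families, had no call. IFIT proteins bind foreign RNA and block its translation. Ifit1 stood at 1.62 and 2.83 FPKM in the authors' deposited table (0.81 ± 0.61). Ifit2 stood at 1.78 and 1.47 FPKM (−0.27 ± 0.55) and Ifit3 at 3.75 and 3.26 FPKM (−0.20 ± 0.56), each with q = 1.00. The upper 95% bounds for Ifit2 and Ifit3 were 0.81 and 0.89 on the log2 scale, so a doubling lay outside both intervals. For Ifit3, 51.2% of the 50-base words also occur in Ifit3b, so its value may hold reads of that copy. Mx1 and Mx2, genes of a dynamin-like GTPase family, were the lowest members in carcinoma: 0.229 and 0.596 FPKM for Mx1 (1.38 ± 0.84, q = 0.840) and 0.316 and 0.534 FPKM for Mx2 (0.76 ± 0.83, q = 1.00). Both stayed under 1 FPKM in both groups.

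Set side by side, the type I families (Ifit, Oas and Mx) had 2 of 12 members higher, 10 of 12 with positive fold changes and a median log2 fold change of 0.86, by the deposited values. The genes responsive to interferon-gamma (Gbp2, Gbp3, Gbp5, Igtp, Irgm1 and Irf1) had 2 of 6 members higher, all 6 positive and a median of 1.14. Of all tested genes, 3.07% rose. Summed FPKM went from 16.4 to 33.9 in the type I families and from 29.9 to 69.2 in the gamma genes. Within the type I families both calls were the Oas1a and Oas1g pair. The 20 members in neither class had no call, and their median was 0.66. The difference between the classes was not tested, and the range of the type I genes, from −0.27 to 2.37, covers that of the gamma genes, from 0.59 to 1.96.

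**Figure D3:**
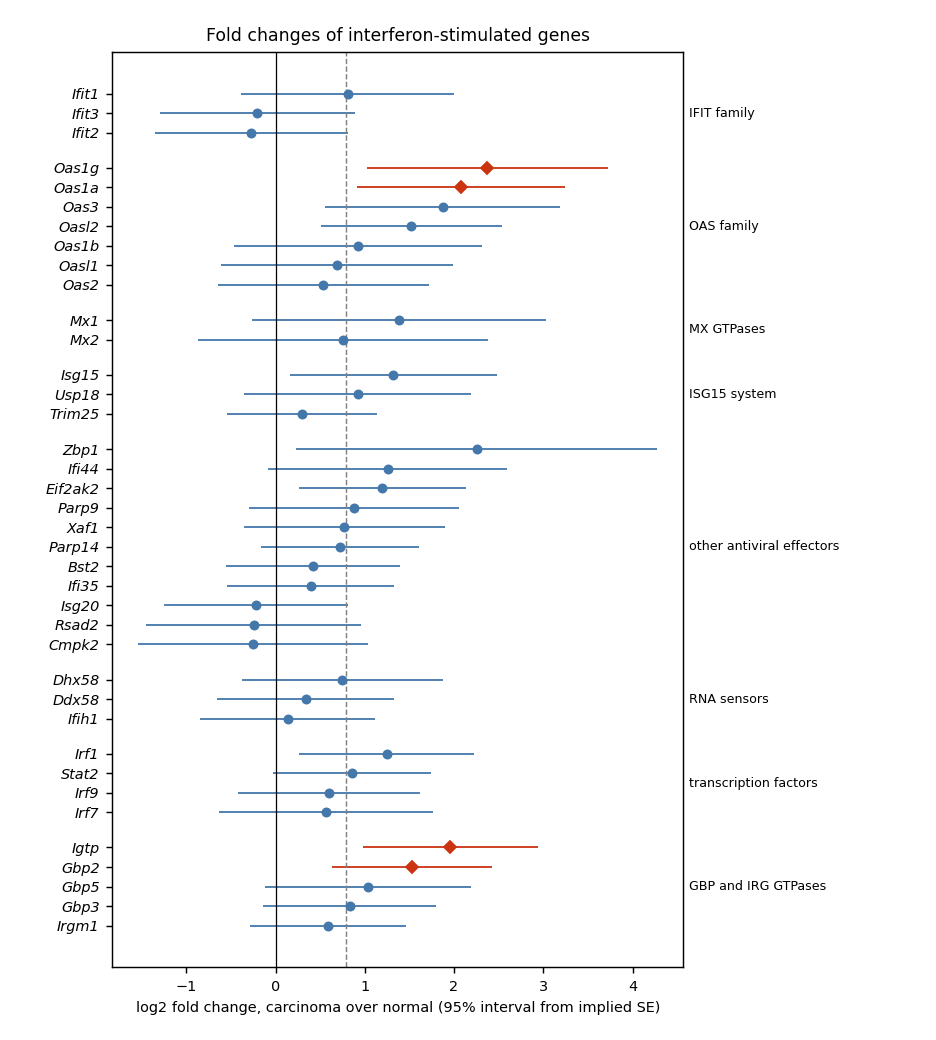
Log2 fold change of each member with its 95% interval, by role; red diamonds passed q under 0.05 and the dashed line is the members' median of 0.79. The intervals of 10 members lie above 0 and none lies below it.

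Among the transcription factors, Irf1 had the largest fold change and did not pass. It drives antigen-presentation genes and had 6.50 FPKM in normal tongue against 15.4 in carcinoma in the authors' deposited table (1.25 ± 0.50, q = 0.263). Stat2, a subunit of the type I complex, stood at 3.53 and 6.39 FPKM (0.86 ± 0.45, q = 0.636). Irf9, its DNA-binding subunit, stood at 7.90 and 11.9 FPKM (0.60 ± 0.52), and Irf7, the amplifier of interferon-alpha production, at 5.66 and 8.37 FPKM (0.56 ± 0.61), each with q = 1.00. All 4 were above the median tested gene in carcinoma, 5.69 FPKM. No RNA sensor passed: Ifih1 (MDA5) stood at 1.97 and 2.16 FPKM (0.14 ± 0.50), Ddx58 (RIG-I) at 1.77 and 2.24 (0.34 ± 0.51), and Dhx58 (LGP2), which modulates both, at 2.02 and 3.39 (0.75 ± 0.58), each with q = 1.00.

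The ISG15 system attaches the ubiquitin-like protein ISG15 to other proteins. Isg15 had the second highest level of any member in carcinoma, 22.9 FPKM against 9.18 in normal tongue (1.32 ± 0.59, q = 0.413 in the authors' deposited table). Usp18, which removes ISG15 and restrains the type I receptor, stood at 1.79 and 3.38 FPKM (0.92 ± 0.65), and Trim25, the ligase that activates RIG-I, at 8.44 and 10.3 FPKM (0.29 ± 0.43), each with q = 1.00. None of the 3 passed.

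No member of the remaining 11 effectors passed. Zbp1, a sensor of left-handed nucleic acid that triggers necroptosis, had the second largest fold change of all members, from 1.31 to 6.23 FPKM in the authors' deposited table, with the largest standard error (2.25 ± 1.03, q = 0.442). Eif2ak2 (PKR), the kinase that stops translation on sensing double-stranded RNA, stood at 2.51 and 5.76 FPKM (1.20 ± 0.48, q = 0.252), and Ifi44 at 0.745 and 1.78 FPKM (1.26 ± 0.68, q = 0.686). The ADP-ribosyltransferase family members Parp9 and Parp14 stood at 3.64 and 6.70 FPKM (0.88 ± 0.60, q = 0.976) and at 2.07 and 3.41 FPKM (0.72 ± 0.45, q = 0.880). Parp9 shares its listed locus with another row, and 9.09% of its 50-base words also occur in Dtx3l. Xaf1, a pro-apoptotic factor, stood at 1.76 and 3.001 FPKM (0.77 ± 0.58, q = 1.00).

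Bst2 (tetherin), which holds budding viruses at the cell surface, was the most abundant member in both groups, at 21.6 and 28.8 FPKM in the deposited table (0.42 ± 0.50, q = 1.00). Ifi35 stood at 11.4 and 15.02 FPKM (0.40 ± 0.48, q = 1.00). The exonuclease gene Isg20 stood at 17.6 and 15.1 FPKM (−0.22 ± 0.53). Rsad2 (viperin), which makes a chain-terminating nucleotide, stood at 1.21 and 1.02 FPKM (−0.25 ± 0.61), and its chromosome 12 neighbour Cmpk2, a mitochondrial nucleotide kinase, at 1.05 and 0.882 FPKM (−0.25 ± 0.66). With Ifit2 and Ifit3, these are the 5 members with negative fold changes, all between −0.27 and −0.20 and each with q = 1.00.

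The test left wide intervals. The largest p called anywhere in the authors' deposited table was 0.0013, so with its standard error a member needed a change of at least 2.60-fold to be called, 3.62-fold at the median and 10.02-fold for Zbp1. Of the 34 members that were not called, 30 had an upper 95% bound of 1 or more on the log2 scale, which leaves room for a doubling. The 4 whose upper bound was below 1 were Ifit2, Ifit3, Isg20 and Rsad2.

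Matches to the ISRE core were common in the members' promoters. Of 38 members, 29 had a promoter in the RefSeq table under the same symbol, and 17 of these (58.6%) held an ISRE match within the 250 bases before or 50 after an annotated start site, beside 3.88% of 15639 genes of the table. A GAS match was present in 9 of the 29 (31.0%), beside 9.19%. All 4 called members were among the 17 with an ISRE match, and the windows of Oas1a and Oas1g are 89.0% identical. The other members with a match did not pass: Ifit1, Ifit3, Oas3, Isg15, Rsad2, Bst2, Eif2ak2, Ifih1, Ddx58, Stat2, Gbp3, Gbp5 and Irgm1. The ISRE match was present in 5 of 8 type I genes and 5 of 6 gamma genes with a promoter, and the GAS match in 2 of 8 and 3 of 6. Irf1 was the gamma gene with no ISRE match in this window; it held a GAS match 90 bases before its start site. In Bst2 the GAS match overlapped an ISRE match. Such matches describe sequence and do not show binding.

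**Figure D4:**
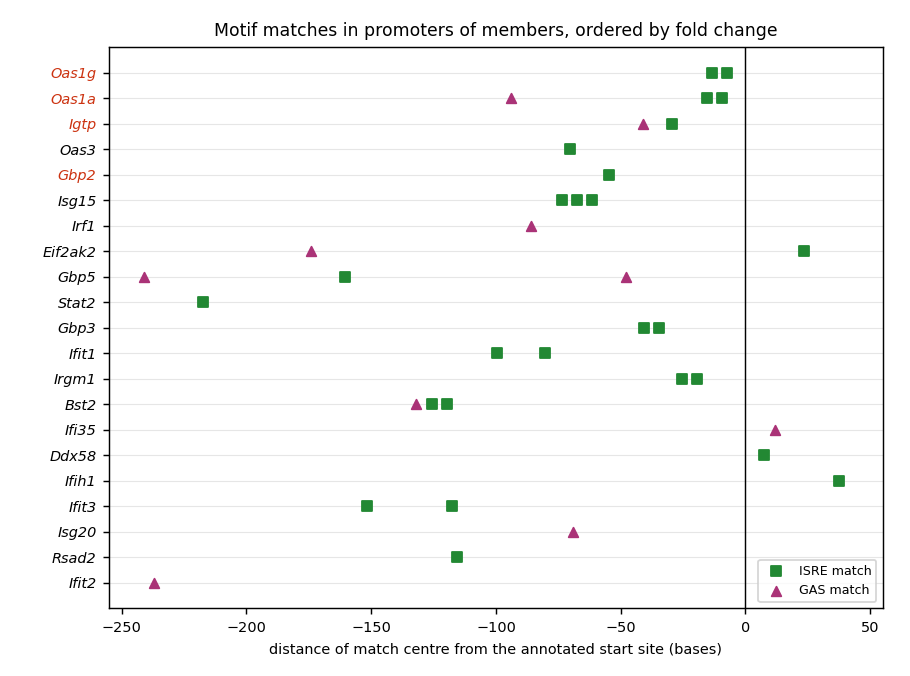
Centres of ISRE (squares) and GAS (triangles) matches relative to the annotated start site, in bases, for members that hold at least 1, ordered from the highest fold change at the top; red names passed q under 0.05. Matches occur at both ends of the order, from Oas1g to Ifit2.

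Upstream of these genes, the ligands were barely detected. Of 20 interferon ligand genes listed, 19 were rows of the authors' deposited table, none was tested, and 10 were listed at 0 in both groups. The highest value was that of Ifng, the interferon-gamma gene, named after its value was seen: 0.0121 FPKM in normal tongue and 0.162 in carcinoma. The table gives it no test, and a listed 0 does not show that a gene is silent. None of the 6 receptor chains passed. Ifnar1 stood at 4.49 and 4.68 FPKM (0.06 ± 0.43) and Ifnar2 at 8.44 and 9.04 (0.10 ± 0.60). Ifngr1 stood at 18.7 and 14.1 FPKM (−0.41 ± 0.43) and Ifngr2 at 18.7 and 9.69 (−0.95 ± 0.44, q = 0.448). Il28ra and Il10rb, the interferon-lambda chains, had log2 fold changes of 0.07 ± 0.54 and −0.11 ± 0.45.

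Of 8 kinases and inhibitors of the pathway, 2 rose, beside 3.07% of all tested genes, and both encode feedback inhibitors of cytokine receptors. Socs1, which blocks the JAK kinases of both interferon receptors, rose from 1.39 to 10.1 FPKM in the authors' deposited table (2.86 ± 0.68, q = 0.00176). Socs3, best known as the brake on interleukin-6 signals, rose from 7.87 to 24.7 FPKM (1.65 ± 0.46, q = 0.0179). The kinases Jak1 (−0.04 ± 0.48), Jak2 (−0.14 ± 0.46) and Tyk2 (−0.06 ± 0.47), the phosphatases Ptpn2 (0.67 ± 0.52) and Ptpn6 (0.61 ± 0.56), and Pias1 (−0.29 ± 0.44) had q = 1.00. None of 12 tested genes of sensing and of the control of interferon induction, such as Toll-like receptors and their adaptors, passed. Of these, 4 were positive and 8 negative, and the lowest was Mavs at 19.5 and 9.50 FPKM (−1.04 ± 0.47, q = 0.424).

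**Figure D5:**
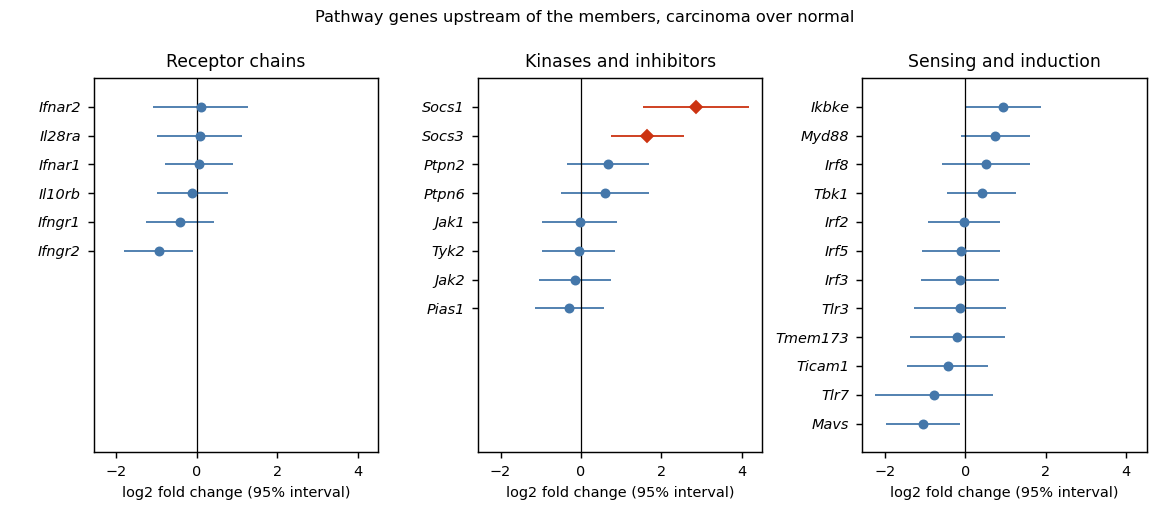
Log2 fold changes with 95% intervals for tested receptor chains, kinases and inhibitors, and genes of sensing and induction. Red diamonds mark Socs1 and Socs3, the only genes of these 3 lists that passed q under 0.05.

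Further targets outside the member list were read against the 3.07% of all tested genes that rose. The difference between the gamma and type I lists was not tested. The target sets overlap, so some genes could sit in either list, and the lists were chosen with earlier results of these data known. Of 20 tested further gamma targets, 4 (20.0%) rose and 0 fell by the authors' deposited q-values, and the median log2 fold change was 1.16. Cxcl9, a T-cell chemokine, rose from 0.342 to 7.50 FPKM (4.45 ± 0.68, q = 1.25e-08). Nlrc5, the transactivator of class I antigen-presentation genes, rose from 0.759 to 5.39 FPKM (2.83 ± 0.53, q = 1.52e-05). The immunoproteasome subunit Psmb8 (1.75 ± 0.48, q = 0.0149) and the peptide transporter Tap1 (1.89 ± 0.47, q = 0.0042) were the others. Of 25 tested further type I targets 1 rose (4%), a share near that of all tested genes. It was Mlkl, the executor of necroptosis, which rose from 0.976 to 5.80 FPKM (2.57 ± 0.65, q = 0.00533), and the list's median was 0.45. Fold changes were positive in 20 of the 25 type I targets and in 18 of the 20 gamma targets. At an unadjusted p under 0.05, 7 type I targets were higher and 1 lower. For the gamma targets these counts were 9 and 0, and the shares of all tested genes were 8.22% and 12.5%. Cxcl10, a T-cell chemokine named after its value was seen, had the largest fold change of that list, with 0.544 and 13.4 FPKM, and did not pass (4.62 ± 3.55, q = 1.00).

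Markers of some cell types were higher in carcinoma and those of others lower, and their part in the members' differences was not tested. The counts of calls below stand beside 3.07% of all tested genes that rose and 3.19% that fell. Of 7 tested T-cell and natural killer markers 2 rose in the authors' deposited table, Cd3g and Gzmb, and all 7 were positive. The summed level of the 10 listed was 1.43 FPKM in normal tongue and 7.45 in carcinoma, while the natural killer receptor Ncr1 stood at 0.0596 and 0.0185 FPKM. Of 8 macrophage and monocyte markers none passed and 5 were negative. Their sum of 165 and 122 FPKM was mostly Lyz2 (129 and 76.7 FPKM), and was 35.7 and 45.3 without it. Cd14 stood at 3.77 and 11.8 FPKM (1.64 ± 0.54, q = 0.0790) and Cd68 at 7.04 and 13.6 FPKM (0.95 ± 0.54, q = 0.745). Beside Lyz2, the negative markers were Emr1 (2.02 and 1.27 FPKM), Csf1r (8.78 and 5.83), Mrc1 (3.73 and 2.04) and Ly6c2, which hardly differed (10.09 and 10.07). None of 6 plasmacytoid dendritic cell markers passed. Siglech, the most specific of them, stood at 0.512 and 0.234 FPKM. Their sum of 1363 and 523 FPKM was mostly Cox6a2, also a muscle gene, and was 11.3 and 8.89 without it and Klk1. Neutrophil markers rose in 2 of 6, S100a8 and S100a9, which activated epithelium also makes, and the list's sum went from 113 to 7051 FPKM. Without these genes the sum was 12.7 and 17.4 FPKM, and none of the other 4 passed. Epithelial markers rose in 1 of 7 tested, Dsg3, with all 7 positive and a median log2 fold change of 1.23. Their sum over the 7 was 1649 FPKM in normal tongue and 5011 in carcinoma, leaving out Krt14, which the table did not test (status HIDATA) and lists at 0 in carcinoma. Most of that sum was Krt5, at 843 and 3201 FPKM (1.93 ± 2.38), which did not pass. Muscle markers fell in 2 of 9, Myh2 and Myot, and all 9 were negative, with a median of −1.60. The sum of the muscle markers went from 13163 to 4913 FPKM. Most of it was Mb (5751 and 2007 FPKM, −1.52 ± 2.41) and Tnni2 (5065 and 2241 FPKM, −1.18 ± 1.34), and neither passed. Endothelial markers fell in 1 of 5, Cdh5, and the sum went from 76.6 to 36.4 FPKM.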

How the data were processed

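Poly(A) RNA of 5 normal tongue samples and 3 tongue carcinoma samples was sequenced from TruSeq RNA libraries, per the labels' protocols. The submitters' processing notes name GSNAP 2011.11.17, edgeR and GRCh37, a human assembly, with no role given. Neither the table's program nor its mouse build is named in these sources. Only 1.08% of 20601 genes shared a start with GRCm38, so table coordinates are not printed. The authors deposited 1 FPKM value per group, with a log2 fold change and a test statistic (a score with no fixed range), a p-value and a q-value for each row, per the file headers. The depth of each sample is unknown.

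Rows of status OK (15783) counted as tested. A call was a deposited q-value under 0.05, identical to the authors' call throughout. The standard error was the size of the log2 fold change divided by that of the statistic, whose sign is opposite to the fold in every row, since the deposited p-value equals a two-sided normal p of that statistic, and 95% intervals used 1.96 standard errors. No new test between groups could be made. Promoters and transcripts came from RefSeq (GRCm38.p6) and GENCODE M21. Scripts used Python 3.11.15, pandas 2.3.3, SciPy 1.17.1 and Biopython 1.88 and were tested on simulated data.

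The members and gene lists were chosen with earlier results of these data known. All 38 members are named. Of the pathway lists, called genes and tested receptors, kinases and inhibitors are named (1 further gene of the pathway is not reported here), and of the cell lists up to 2 genes each, Klk1, Lyz2, Cd14, Cd68, Cxcl10, Gbp and Oas relatives and Irgm2 being chosen after their values were seen. Alternatives were other q limits, Benjamini-Hochberg adjustment, a minimum of 1 FPKM, pseudocounts of 0.1 and 1 FPKM, re-centring, and a limit on the standard error.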

Additional observations from a re-analysis of the deposited data

How the results depend on the processing

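With a q-value under 0.01, 1 member was called (Igtp), with 0 calls in the type I families and 1 among the gamma genes. The stricter limit itself makes this change. Of all 15783 tested genes, 1.96% rose at q under 0.01, 3.64% at q under 0.1 and 3.98% with Benjamini-Hochberg adjustment. The count of called members was 4 under q below 0.1, 5 with Benjamini-Hochberg adjustment over all tested genes or over genes reaching 1 FPKM in either group, where Oasl2 joined (adjusted p = 0.0410 over all), and 3 with Oas1a and Oas1g counted as 1 gene, an alternative chosen after seeing the data. None of these settings gave a member called lower. The members' median log2 fold change ranged from 0.54 (pseudocount of 1 FPKM) to 0.83 (re-centred), that of the type I families from 0.47 to 0.91 and that of the gamma genes from 0.91 to 1.18. The number of positive members was 33 with either pseudocount and after re-centring. With a pseudocount of 1 FPKM, 3 members moved by more than their standard error: Oas1g to 1.46, Oas3 to 0.79 and Mx1 to 0.38. No paired analysis was possible because the table holds no value per sample, and leaving out single samples could not be run for the same reason. The depth of each sample is unknown, so what it limits could not be computed.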
